A study of Mus musculus with 6 samples.

Results

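Sirtuins are enzymes that remove acetyl and other acyl groups from lysines and split a molecule of NAD each time they do so. The 7 mammalian sirtuins, Sirt1 to Sirt7, were examined here together with Nampt and Nmnat2, which make NAD, in mouse cerebellum at postnatal day 18. The 9 genes were chosen by symbol, with the KO against WT difference of Sirt1, a neighbour of Atoh7, already known. They are 9 of 24411 genes in the count tables, and all 9 were among the 15519 genes that passed the filter on low counts. RNA came from 3 replicates of mice with the remote enhancer of Atoh7 knocked out (KO) and 3 replicates of wild-type mice (WT), all of that age. Atoh7 encodes a proneural transcription factor needed to form the ganglion cells of the eye. Replicates are described as independent, but no label names the animals, so the spread between replicates may be partly technical. The labels state neither strain nor sex.

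NAD is recycled from nicotinamide by Nampt, the rate-limiting step, and by the Nmnat enzymes, of which Nmnat2 is the neuronal form of the Golgi and axon. Sirt1, Sirt6 and Sirt7 are mainly nuclear, Sirt2 is mainly cytoplasmic and abundant in oligodendrocytes, and Sirt3, Sirt4 and Sirt5 work in mitochondria. In the brain the family is known for its links to metabolism, myelin and the survival of axons.

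Sequencing depth was 46160747 to 51947647 reads per library. Gene reads other than those of Rn45s, the ribosomal RNA precursor, numbered 32139351 to 33940607 in KO and 6015125 to 27315398 in WT. WT replicate 3 was the shallow library, with 63.2% of its gene reads from Rn45s. Reads outside genes made up 17.3% ± 0.291 of KO and 34.3% ± 3.59 of WT libraries (SD, n = 3 each), so the share of reads outside genes moved with genotype. Xist reads numbered 31134 in WT replicate 1 and at most 10 in any other library. Only WT replicate 1 thus had the Xist level of female tissue, and sex was not matched between the groups. The sample labels read retina where the protocol reads cerebellum. The photoreceptor gene Crx had 0 reads in all 6 libraries and Prph2 had 0 to 1, while the cerebellar genes Gabra6 (granule cells) and Pcp2 (Purkinje cells) had 155 to 338 and 123 to 295 CPM, counts scaled to library size. In bulk RNA, fewer cells of a type and less RNA per cell cannot be told apart.

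Of the 9 genes, 3 were lower in KO and 1 was higher past an adjusted p of 0.05 in edgeR's quasi-likelihood test over all genes, and 5 did not pass. In that comparison 16.7% of all tested genes passed, 6.43% higher and 10.2% lower in KO. Nothing is read from the count of 4, since the genes were picked with this contrast in view, and for the same reason no p is printed for them. The lower ones were Sirt1, Sirt4 and Sirt7, and the higher one was Nmnat2. KO and WT libraries did not overlap in 7 of the 9 genes, against 39.4% of all tested genes. Of the 7, 5 had KO below and 2 had KO above, where 20.5% of all tested genes had KO below and 18.9% had KO above. The median log2 fold change (KO minus WT) was −0.16 over the 9 genes and −0.0055 over all tested genes. Of the calls, that of Sirt1 was kept in each of the 6 fits that leave out 1 library. Between 1 (without KO replicate 2) and 6 (without WT replicate 3) of the 9 genes passed in those fits, with 2 without KO replicate 1, 3 without KO replicate 3 or WT replicate 2, and 5 without WT replicate 1.

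**Figure D1:**
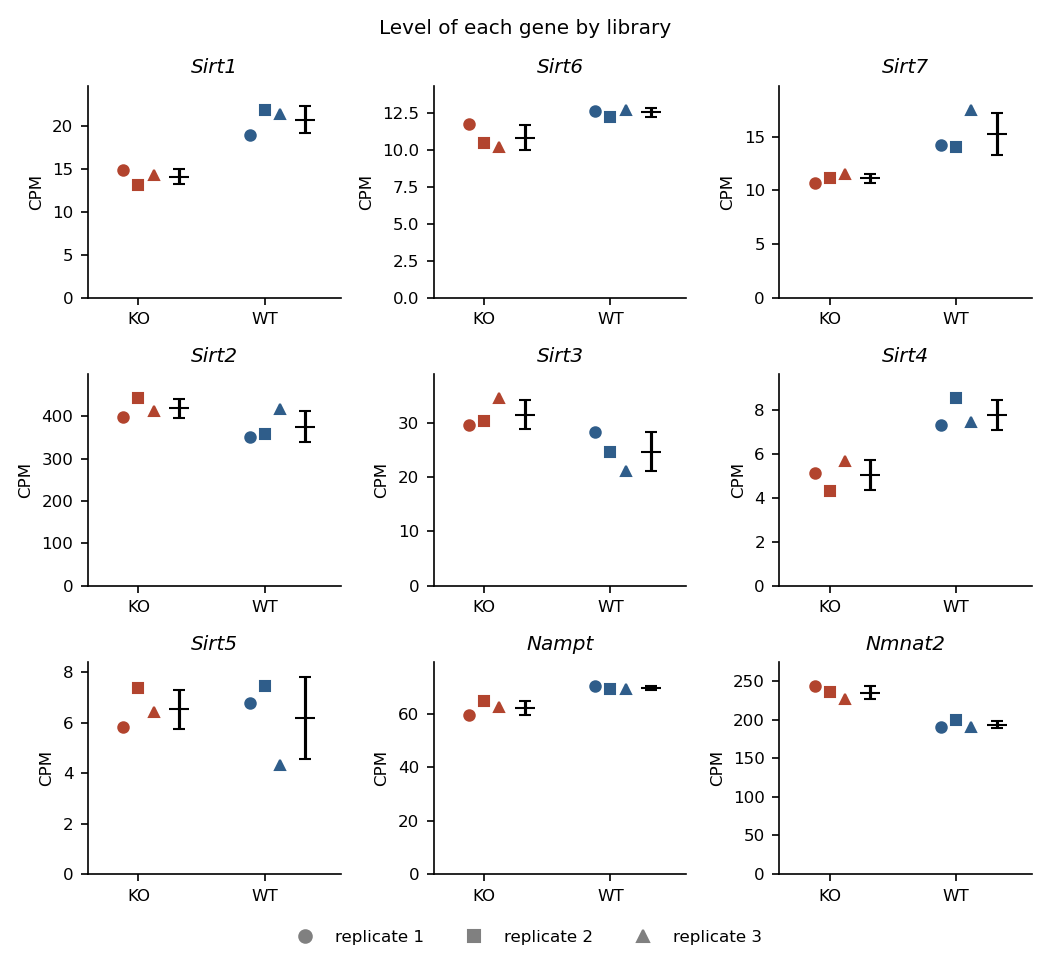
CPM (y axis, from 0) of each of the 9 genes in every library, KO on the left and WT on the right; the black mark is the mean and its bar the SD over 3 libraries. Sirt1, Sirt4 and Sirt7 lie lower in all 3 KO libraries than in any WT library, Nmnat2 lies higher, and Sirt2 and Sirt5 overlap.

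Sirt1, the deacetylase of histones, p53, FOXO factors and PGC-1alpha, is encoded on chromosome 10 at 63319005 to 63381704 (GRCm38, minus strand). It lies 217725 bases beyond Atoh7 (63099651 to 63101279). Sirt1 had 14.9, 13.1 and 14.3 CPM in KO replicates 1 to 3, against 18.9, 21.9 and 21.4 CPM in WT replicates 1 to 3. Every KO library was below every WT library. These levels rest on 573, 520 and 595 reads in KO and 652, 709 and 138 reads in WT. Means were 14.1 ± 0.891 CPM in KO and 20.8 ± 1.60 CPM in WT (SD, n = 3 each), which puts Sirt1 31.7% lower in KO (log2 fold change −0.55, SE 0.09). With each library left out in turn the value ran from −0.62 to −0.49. With a covariate for read assignment (the log2 of reads outside genes over reads of genes other than Rn45s) it was −0.50, still past the threshold.

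Promoter sequence is shown for Sirt1, which was lower in KO, for Nmnat2, which was higher, and for Nampt, which comes before Nmnat2 in NAD synthesis. Each run is the stretch of the 250 bases before the RefSeq start (GRCm38.p6) that lies outside every GENCODE exon, 5′ to 3′ on the gene's strand. Capitals mark the E-box CACGTG, bound by basic helix-loop-helix factors, and the GC box GGGCGG, bound by Sp factors, on either strand. The Sirt1 stretch is chr10:63339051-63339285 (minus strand), that of Nampt chr12:32820085-32820334 (plus strand) and that of Nmnat2 chr1:152954851-152954992 (plus strand). Those of Sirt1 and Nampt lie inside the GENCODE spans of these genes, which begin upstream of the RefSeq start used here.
Sirt1: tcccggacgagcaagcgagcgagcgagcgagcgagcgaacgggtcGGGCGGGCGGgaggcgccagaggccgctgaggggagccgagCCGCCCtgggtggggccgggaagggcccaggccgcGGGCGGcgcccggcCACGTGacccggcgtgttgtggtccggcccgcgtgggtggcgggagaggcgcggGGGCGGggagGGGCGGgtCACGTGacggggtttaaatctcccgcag
Nampt: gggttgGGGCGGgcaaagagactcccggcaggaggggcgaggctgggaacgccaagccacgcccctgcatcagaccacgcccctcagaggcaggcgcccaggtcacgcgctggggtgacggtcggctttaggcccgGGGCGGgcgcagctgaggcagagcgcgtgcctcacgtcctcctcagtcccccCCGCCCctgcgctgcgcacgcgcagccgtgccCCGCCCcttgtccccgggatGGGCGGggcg
Nmnat2: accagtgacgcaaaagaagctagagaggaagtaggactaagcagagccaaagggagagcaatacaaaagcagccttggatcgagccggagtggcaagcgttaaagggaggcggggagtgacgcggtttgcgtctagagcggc
Sirt1 held 2 E-boxes and 6 GC boxes, of which 2 GC boxes overlap each other. Nampt held 5 GC boxes and no CACGTG, and Nmnat2 held neither. Among 32851 promoter windows of 300 bases, 7.15% held CACGTG and 35.7% held GGGCGG. The motifs CCAAT and TATAAA, present in 37.4% and 13.6% of those windows, were not in these 3 stretches. The windows run past the start and are longer than the stretches, which have 235 (Sirt1), 250 (Nampt) and 142 (Nmnat2) bases. In the whole windows of these 3 genes, each motif was present or absent as in the stretch. A match says only that the letters are there.

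Of the other nuclear sirtuins, Sirt7 was lower in KO past the threshold and Sirt6 did not pass. Sirt7, a deacetylase of the nucleolus that acts on ribosomal gene transcription, had 10.6, 11.2 and 11.5 CPM in KO replicates 1 to 3, against 14.2, 14.0 and 17.5 CPM in WT replicates 1 to 3. The groups did not overlap, and WT replicate 3 was the highest. Its log2 fold change was −0.42 (SE 0.10), 25.4% lower in KO. The call was lost without KO replicate 1 (−0.39), KO replicate 2 (−0.43) or KO replicate 3 (−0.45). With the read assignment covariate the difference was −0.18 and did not pass. Sirt6, a deacetylase of chromatin and DNA repair that lies 18.5 Mb from Atoh7 on the same chromosome, had 11.7, 10.5 and 10.1 CPM in KO replicates 1 to 3, against 12.6, 12.2 and 12.7 CPM in WT replicates 1 to 3. KO was below WT without overlap, but the log2 fold change of −0.21 (SE 0.09) did not pass, and leaving out single libraries gave −0.27 to −0.17.

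Sirt2, the tubulin deacetylase of myelinating cells, was the most abundant of the family. Its levels were 399, 444 and 412 CPM in KO replicates 1 to 3, against 351, 358 and 418 CPM in WT replicates 1 to 3. WT replicate 3, the shallow library, lay inside the KO range, and the other WT libraries lay below it. The log2 fold change was 0.16 (SE 0.08) and did not pass. Without WT replicate 3 it was 0.24 and passed, and with the covariate it was 0.36 and passed. None of 12 myelin genes passed in edgeR with all libraries, and 2, among them Mbp, passed without WT replicate 3. Summed over the 12, myelin transcripts stood at 31683 to 33654 CPM in KO and 25006 to 28907 CPM in WT. Their part in the Sirt2 value was not tested. Sirt2 overlaps Nfkbib on the opposite strand over 778 bases, and counting without strand left 69.9% to 73.1% of the Sirt2 count in KO and 72.1% to 74.8% in WT.

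Of the mitochondrial sirtuins, Sirt4 was lower in KO past the threshold, and Sirt3 and Sirt5 did not pass. Sirt4, a lipoamidase and ADP-ribosyltransferase that restrains glutamate dehydrogenase, had 5.11, 4.29 and 5.66 CPM in KO replicates 1 to 3, against 7.29, 8.54 and 7.44 CPM in WT replicates 1 to 3. The groups did not overlap. It was 35.7% lower in KO (log2 fold change −0.64, SE 0.14), the largest difference of the 9 genes in the fit with all libraries, on 170 to 235 reads in KO and 48 to 276 in WT. The call was lost without KO replicate 2 (−0.53), without WT replicate 2 (−0.55) and with the covariate (−0.69). Sirt3, the main mitochondrial deacetylase, had 29.6, 30.3 and 34.6 CPM in KO replicates 1 to 3, against 28.3, 24.6 and 21.1 CPM in WT replicates 1 to 3. KO lay above WT in all libraries, though KO replicate 1 and WT replicate 1 were close. The log2 fold change of 0.32 (SE 0.11) did not pass. It passed without WT replicate 1 (0.44), by DESeq2 (0.34), with no filter (0.34) and with reads counted without strand (0.32), and was 0.08 with the covariate. Sirt3 overlaps Psmd13 and Ric8a on the opposite strand. Sirt5, the desuccinylase, had 5.84, 7.37 and 6.41 CPM in KO replicates 1 to 3, against 6.77, 7.46 and 4.34 CPM in WT replicates 1 to 3. The groups overlapped, and the log2 fold change of −0.01 (SE 0.16) was smaller than its error. Its value with the covariate was −0.51, which did not pass.

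**Figure D2:**
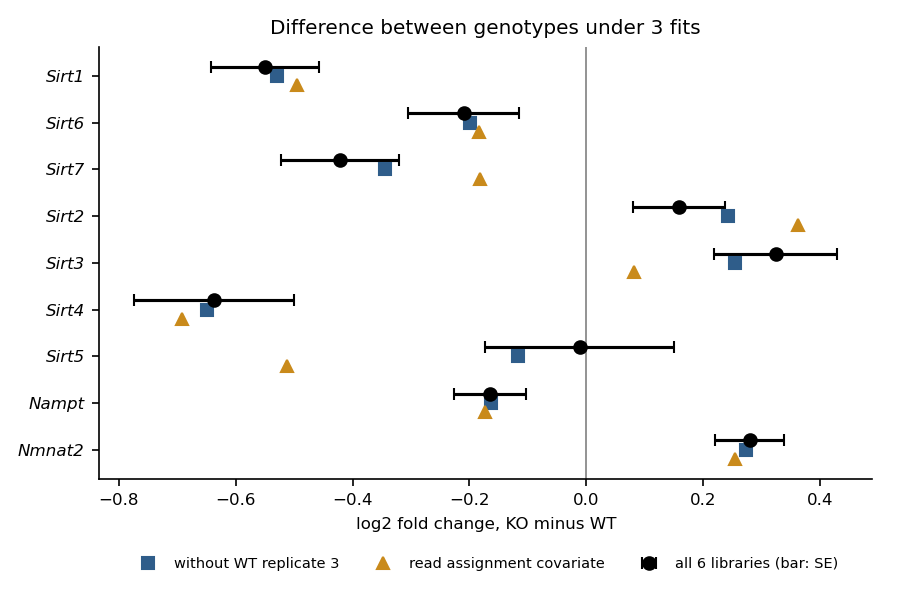
Log2 fold change (x axis, KO minus WT) of each gene with all 6 libraries (black, bar is the SE). Blue squares leave out WT replicate 3, and orange triangles include the read assignment covariate. Sirt1 and Nmnat2 stay near −0.55 and 0.28, while Sirt7, Sirt3, Sirt5 and Sirt2 move by more than their SE with the covariate.

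The NAD synthesis genes lay on opposite sides of 0. Nmnat2 had 244, 236 and 227 CPM in KO replicates 1 to 3, against 191, 199 and 191 CPM in WT replicates 1 to 3. All KO libraries were above all WT libraries. The difference was 1.21 fold (log2 0.28, SE 0.06), from 9338 to 9409 reads in KO and 1233 to 6576 in WT. The call was lost without KO replicate 1 (0.26), without KO replicate 2 (0.28) and with the covariate (0.25). Nampt had 59.6, 64.8 and 62.6 CPM in KO replicates 1 to 3, against 70.6, 69.4 and 69.6 CPM in WT replicates 1 to 3. KO was below WT without overlap, yet the log2 fold change of −0.16 (SE 0.06) passed only without WT replicate 3, at the same −0.16. The noncoding gene Gdap10 overlaps Nampt on the same strand over 5033 bases. The ratio of Nmnat2 to Nampt CPM was 4.09, 3.64 and 3.62 in KO replicates 1 to 3 and 2.71, 2.87 and 2.75 in WT replicates 1 to 3.

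Levels of different genes were set side by side as CPM per kilobase of exon, with exon lengths from the GENCODE M21 basic set. Sirt2 was highest, at 186 ± 10.2 in KO and 167 ± 16.4 in WT (SD, n = 3 each). Nmnat2 came next, at 50.9 ± 1.88 in KO and 41.9 ± 1.04 in WT. Sirt3 and Nampt followed at means of 16.3 and 14.6 over all 6 libraries, and their ranges overlapped, with Sirt3 higher in 4 of 6 libraries. Then came Sirt7 (7.31), Sirt6 (5.02), Sirt1 (3.93), Sirt4 (3.13) and Sirt5 (2.16), as means over 6 libraries. Neighbours in this order overlapped in range from Sirt6 down to Sirt5, although Sirt6 was above Sirt1, and Sirt1 above Sirt4, in 6 of 6 libraries. Of the summed level of the 7 sirtuins per kilobase, Sirt2 made up 83.4% ± 1.12 in KO and 81.0% ± 1.93 in WT, Sirt1 1.44% ± 0.152 in KO and 2.29% ± 0.189 in WT, and Sirt7 2.77% ± 0.108 in KO and 4.11% ± 0.224 in WT (SD, n = 3 each). With exon lengths from the comprehensive GENCODE set, chosen after the values were seen, Sirt2 and Nmnat2 stayed first and second and Sirt5 last, and Sirt7 moved from place 5 to place 8. Sirt3 (4.70) then lay below Nampt (13.1), and Sirt2 stood at 78.9, as means over 6 libraries.

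**Figure D3:**
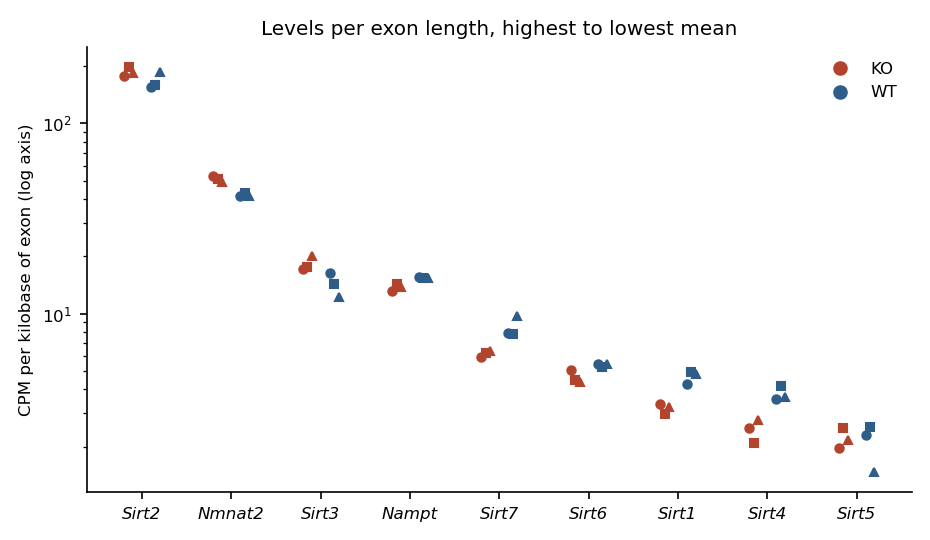
CPM per kilobase of exon (log axis) for each gene and library, ordered by the mean over 6 libraries, KO to the left of WT within each gene. Sirt2 stands near 176 and Sirt5 near 2.16, and the genes from Sirt6 to Sirt5 overlap with their neighbours.

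Other genes of NAD metabolism were tested in the same fit. The lists here and below were also chosen with earlier results of these data known, and their genes were named mainly by smallest p. Their adjusted p-values describe these libraries and are not an independent test. Of 23 listed genes of NAD synthesis and transport, 17 were tested, and 2 rose, 1 fell and 14 did not pass (median log2 fold change 0.09). Over all tested genes 6.43% rose and 10.2% fell. Slc25a51, the mitochondrial NAD carrier, rose to 107 ± 1.92 CPM in KO, against 84.6 ± 7.68 CPM in WT (0.32, SE 0.07; edgeR adjusted p = 0.0152). Nadk2, the mitochondrial NAD kinase, rose (0.26, SE 0.07; edgeR adjusted p = 0.0306). Aspdh, a putative aspartate dehydrogenase, fell by 0.69 on the log2 scale (SE 0.15; edgeR adjusted p = 0.0129) at 2.28 CPM in KO and 3.57 CPM in WT. None of these 3 calls was kept without KO replicate 1, 2 or 3, where 0 of the list passed. Those fits gave 0.31 to 0.34 for Slc25a51, 0.23 to 0.29 for Nadk2 and −0.70 to −0.66 for Aspdh. Aspdh (−0.59) and Nadk2 (0.23) also lost their calls without WT replicate 1, and Nadk2 (0.25) without WT replicate 2. With the covariate Slc25a51 was 0.14 and did not pass, while Nadk2 passed at 0.42 and Aspdh at −0.90. The paralogs Nmnat1 (nuclear) and Nmnat3 (mitochondrial), named after their values were seen, had log2 fold changes of 0.09 (SE 0.16) and 0.17 (SE 0.28) and did not pass.

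Of 23 other NAD-consuming enzymes and their partners, 22 were tested, 3 fell, 0 rose and 19 did not pass (median −0.06). Over all tested genes 10.2% fell and 6.43% rose. All 3 are ADP-ribosyltransferases, as are many others on the list. Parp8 fell by 0.38 (SE 0.07; edgeR adjusted p = 0.00535), to 24.4 ± 0.701 CPM in KO against 31.7 ± 0.656 CPM in WT, and passed in each fit that left out 1 library. Parp12 fell by 0.45 (SE 0.10; edgeR adjusted p = 0.0153) and Parp2, a DNA break sensor, by 0.42 (SE 0.10; edgeR adjusted p = 0.0204). Both lost their calls without KO replicate 1, 2 or 3 or WT replicate 2, and Parp2 also without WT replicate 1, with values of −0.48 to −0.41 for Parp12 and −0.44 to −0.36 for Parp2. With the covariate Parp12 (−0.40) and Parp2 (−0.55) did not pass and Parp8 (−0.40) did. Parp1 (−0.06, SE 0.08), the main poly(ADP-ribose) polymerase, and Sarm1 (0.0021, SE 0.08), the NAD hydrolase of degenerating axons, did not pass and were named after their values were seen. Without WT replicate 3, 1 gene of the list rose and 4 fell.

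Of 30 regulators and substrates of Sirt1, 3 rose, 5 fell and 22 did not pass (median 0.01), where 6.43% of all tested genes rose and 10.2% fell. The fallen genes with the smallest p were Crtc2, a CREB coactivator (−0.48, SE 0.10; edgeR adjusted p = 0.00942), and the clock genes Per2 (−0.43, SE 0.10; edgeR adjusted p = 0.0153), Arntl (−0.30, SE 0.07; edgeR adjusted p = 0.0176) and Clock (−0.26, SE 0.06; edgeR adjusted p = 0.0180). The fifth was Hic1, a repressor of Sirt1 transcription (−0.58, SE 0.14), and those that rose included Ppargc1a, which encodes PGC-1alpha (0.23, SE 0.06), and Crtc1 (0.24, SE 0.07). Hic1, Ppargc1a and Crtc1 were named after their values were seen. Crtc2 lost its call without KO replicate 3 (−0.45) and Per2 without KO replicate 2 (−0.35). Arntl and Clock lost theirs without KO replicate 1, 2 or 3 or WT replicate 2, at −0.31 to −0.29 and −0.28 to −0.23. No gene of the list rose without KO replicate 1, 2 or 3 or WT replicate 2, and 2, 1, 1 and 2 fell. With the covariate 1 rose and 2 fell. Of the named genes Clock (−0.32) passed in that fit, and Crtc2 (−0.27), Per2 (−0.39) and Arntl (−0.22) did not.

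Among 22 mitochondrial proteins listed as sirtuin substrates, 3 rose, 1 fell and 18 did not pass (median 0.15), where 6.43% of all tested genes rose and 10.2% fell. Glud1, the glutamate dehydrogenase that Sirt4 restrains, rose to 380 ± 16.7 CPM in KO, against 287 ± 31.7 CPM in WT (0.40, SE 0.08; edgeR adjusted p = 0.00956). Sod2, the mitochondrial superoxide dismutase and a Sirt3 substrate, rose (0.24, SE 0.06; edgeR adjusted p = 0.0191), as did Ogdh (0.20, SE 0.06; edgeR adjusted p = 0.0413), a subunit of the oxoglutarate dehydrogenase complex. Mlycd, the malonyl-CoA decarboxylase, fell by 0.71 (SE 0.19; edgeR adjusted p = 0.0404), although its KO and WT libraries overlapped. Glud1 lost its call without KO replicate 3 (0.37) and with the covariate (0.17). With the covariate Sod2 (0.25) and Ogdh (0.14) did not pass either, and Mlycd passed at −1.17. Sod2 (0.22 to 0.26) and Ogdh (0.18 to 0.22) lost theirs without any 1 library other than WT replicate 3, and Mlycd (−0.67 to −0.57) without KO replicates 2 and 3 and WT replicates 1 and 2. Without WT replicate 3, 6 of the list rose and 2 fell, and without KO replicate 3 none passed.

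The zinc-dependent deacetylases, which need no NAD, included 4 of 11 that fell, 0 that rose and 7 that did not pass (median −0.03). Over all tested genes 10.2% fell and 6.43% rose. Hdac7, a class IIa enzyme known from endothelium, fell to 10.1 ± 0.367 CPM in KO, against 19.2 ± 0.862 CPM in WT (−0.93, SE 0.08; edgeR adjusted p = 1.14e-04). Hdac10, a polyamine deacetylase, fell by 0.69 (SE 0.12; edgeR adjusted p = 0.00432). Both passed without any 1 library. Hdac1 (−0.30, SE 0.08; edgeR adjusted p = 0.0247) and Hdac8 (−0.45, SE 0.12; edgeR adjusted p = 0.0268) also fell, and lost their calls without KO replicate 1, 2 or 3 or WT replicate 2 (−0.34 to −0.27 and −0.50 to −0.42) and, for Hdac1, without WT replicate 1 (−0.27). With the covariate only Hdac7 of these 4 passed (−0.97), and Hdac8 was −0.20. Of 15 acetyltransferases 2 fell and 13 did not pass (median −0.11), namely the nuclear receptor coactivator Ncoa3 (−0.37, SE 0.07; edgeR adjusted p = 0.00582) and the cohesin acetyltransferase Esco1 (−0.36, SE 0.09; edgeR adjusted p = 0.0231). Esco1 lost its call without KO replicate 1 (−0.28), KO replicate 2 (−0.33) or WT replicate 2 (−0.34), and neither passed with the covariate.

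Of 15 genes of the axon survival pathway around Nmnat2, 1 fell and 14 did not pass (median 0.0021), where 10.2% of all tested genes fell. The fallen one was Mycbp2, a ubiquitin ligase that promotes the turnover of Nmnat2 protein, at 363 ± 13.9 CPM in KO and 436 ± 11.9 CPM in WT (−0.26, SE 0.06; edgeR adjusted p = 0.0153). Its call was lost without KO replicate 2 (−0.28), KO replicate 3 (−0.23) or WT replicate 2 (−0.26), and it was −0.32 and past the threshold with the covariate. The most abundant of the others, Stmn2 (0.12, SE 0.08), an axonal microtubule protein, and Skp1a (0.19, SE 0.08), a ubiquitin ligase subunit, did not pass. Stmn2 passed without WT replicate 3 (0.20), where 3 genes of the list rose and 2 fell, and with the covariate (0.32).

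**Figure D4:**
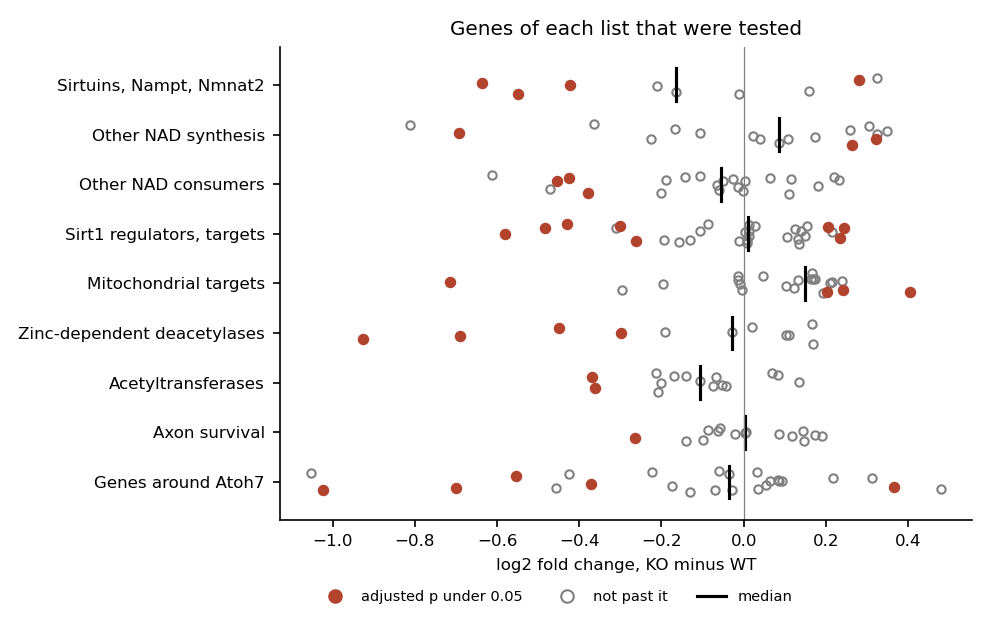
Log2 fold change (x axis, KO minus WT) of every tested gene in each of 9 lists (the cell type markers are not drawn), with filled points for an edgeR adjusted p under 0.05 and a black line at each list's median. Points are spread up and down within a row for visibility; the medians drawn run from −0.16 for the sirtuins with Nampt and Nmnat2 to 0.15 for mitochondrial targets.

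Other genes around Atoh7, whose distances from it were not measured, were tested beside Sirt1. Of 25 tested genes on a list of 26, which holds Atoh7 but not Sirt1, 4 fell, 1 rose and 20 did not pass (median −0.04). Of all tested genes 10.2% fell and 6.43% rose. Atoh7 itself did not pass. It had 1.17, 1.36 and 2.22 CPM in KO replicates 1 to 3, against 2.09, 1.73 and 1.08 CPM in WT replicates 1 to 3, with overlap. Jmjd1c, a histone demethylase family member, fell to 143 CPM in KO, against 211 CPM in WT (−0.55, SE 0.08; edgeR adjusted p = 0.00128). Rufy2, Dna2 and Herc4 also fell, at −0.70, −1.02 and −0.37. Of these 4, Herc4 lost its call without KO replicate 1 (−0.39), KO replicate 2 (−0.35) or KO replicate 3 (−0.38) and with the covariate (−0.18). The gene that rose was Slc25a16, a mitochondrial carrier (0.37, SE 0.09), and 0 rose without KO replicate 2, WT replicate 1 or WT replicate 2 or with the covariate. The 5 genes of at least 10 CPM whose log2 CPM followed Sirt1 most closely over the 6 libraries were Zbtb37, Tbc1d4, Crbn, Prpf3 and Kdm2a, with Pearson's r of 0.994 to 0.999 among 9595 genes compared. They share these libraries with Sirt1, and a difference between the groups adds to r. Their log2 fold changes were −0.52, −0.33, −0.11, −0.59 and −0.12.

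Marker genes of other cell types moved between the same libraries. The shares to set beside their counts are those of all tested genes, 10.2% lower and 6.43% higher in KO. Of 8 vessel genes 7 fell, with a summed level of 186 to 194 CPM in KO and 257 to 291 CPM in WT. The most abundant were Rgs5 (−0.44, and −0.25 and not called with the covariate), Vtn (−0.67) and Slco1a4 (−0.65). Of 8 meningeal genes 6 fell, with 199 to 213 CPM in KO and 281 to 424 CPM in WT, and 3 fell without KO replicate 1, 2 or 3 or WT replicate 2. With the covariate 3 vessel and 2 meningeal genes fell. Purkinje genes had 2 of 8 higher (3505 to 4453 CPM in KO and 3193 to 3856 CPM in WT), and granule neuron genes had 1 of 8 lower (1464 to 2053 CPM in KO and 1896 to 2438 CPM in WT). Astrocyte and Bergmann glia genes had 2 of 8 higher (6171 to 6761 CPM in KO and 5515 to 5702 CPM in WT). In the fits that leave out 1 library, 0 to 2 Purkinje genes and 0 to 2 astrocyte genes were higher, with 0 of either without KO replicate 1 or 3, and 0 to 5 granule genes were lower, with 5 without KO replicate 1, 4 without WT replicate 1 and 0 without KO replicate 3 or WT replicate 3. Microglia had 1 of 8 higher (220 to 232 CPM in KO and 190 to 219 CPM in WT) and choroid plexus 0 of 8 past the threshold in edgeR (1848 to 2250 CPM in KO and 2004 to 2309 CPM in WT). No marker of these lists was at 0 in all libraries. Retinal genes had 1 of 4 tested lower, Rcvrn at 0.0932 CPM in KO and 0.651 CPM in WT (not called without KO replicate 2 or 3 or with the covariate), and Rlbp1, also expressed outside the retina, did not pass. The part of these cell types, and of reads outside genes, in the differences of Sirt1, Sirt4, Sirt7 and Nmnat2 was not tested. The read assignment covariate cannot separate reads outside genes from genotype. It was −1.89, −1.95 and −1.89 in KO replicates 1 to 3 and −0.70, −0.71 and 1.56 in WT replicates 1 to 3.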

How the data were processed

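RNA was measured in 3 KO and 3 WT libraries, grouped by sample title. The authors deposited STAR gene counts, not normalized, for mm10 with Trimmomatic also named, per the submitters' processing notes; no source used here gives the versions or the annotation. Counts came from the strand column with more reads (55.4 times the other), without its 4 summary lines. Genes were filtered with filterByExpr, scaled by TMM and tested with edgeR's quasi-likelihood test in edgeR 4.0.16 under R 4.3.3, and p-values were adjusted by Benjamini-Hochberg over 15519 genes (threshold 0.05). The fit was tested on simulated data. SE is the absolute log2 fold change over the square root of F. CPM use TMM-scaled library sizes, and log2 CPM a prior count of 2. Alternatives used DESeq2 1.42.0, limma-voom (limma 3.58.1), other scaling, no filter, counts without strand, Rn45s left out, a replicate block, a covariate and each library left out. Positions come from GENCODE M21 (GRCm38) and promoters from RefSeq, which matched 9 of 9 genes.

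The members, the lists and the alternatives were chosen with earlier results of these data known. From each pathway list up to 4 genes past the threshold with the smallest p are named, with the 2 most abundant added where fewer than 2 passed; from the myelin, vessel and retinal markers the 3 most abundant are named or described by their summed level. Some genes these rules select are not reported here. Overlapping genes on the same strand, such as Mafg with Sirt7 over 124 bases, lose shared reads.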

Additional observations from a re-analysis of the deposited data

How the results depend on the processing

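Sirt1 kept its direction and its call under all 14 alternatives, with log2 fold changes of −0.62 to −0.49. The alternatives reuse the libraries in which the Sirt1 difference was already known. They thus describe the processing and are no independent support for that difference. Over the 9 genes and 14 alternatives, 99 of 126 values kept direction and call, 13 lost the call, 7 gained it and 7 turned sign, all 7 of them for Sirt5. Sirt5 was at 0.025 by DESeq2, 0.00095 with no filter and 0.044 with the replicate block, and −0.12 to 0.12 with single libraries left out. The count of all genes past the threshold, 2585, was 1422 with the read assignment covariate and 1041 to 3719 with single libraries left out. Of the 9 genes, 4 passed with all libraries, 2 with the covariate (Sirt1 and Sirt2) and 1 to 6 with single libraries left out. Replicate numbers did not pair the libraries, with correlations of −0.18, −0.14 and −0.10 between same-numbered KO and WT libraries across genes. With the replicate block 1073 genes and 1 of the 9 (Sirt1) passed. For 36 other named genes, 390 of 504 values kept direction and call, 99 lost the call, 11 gained it and 4 turned sign. Sign turned for Skp1a (−0.0059) and Cnp (−0.31) with the covariate, for Cnp with single libraries left out (−0.080 to 0.15) and for Rlbp1 likewise (−0.30 to 0.048). The cause of these changes was not tested. Among WT libraries the covariate was −0.70, −0.71 and 1.56, so within groups it mainly sets WT replicate 3 apart. That library is the shallowest, and its counts limit precision for low genes (28 reads of Sirt5, 48 of Sirt4). It also differed in more than depth, with 18.2% of its reads unmapped, against 5.97% and 6.26% in WT replicates 1 and 2. Over genes other than Rn45s, chi-square per degree of freedom was 264 and 254 between its counts and those of WT replicates 1 and 2. It was 8.68 between WT replicates 1 and 2, and 6.45 to 10.4 between KO replicates.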

Other observations

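Reads on the strand opposite each gene were few. Opposite to Sirt1, where GENCODE places the antisense gene Gm16145 over 13035 bases, there were 12, 10 and 18 reads in KO replicates 1 to 3 and 38, 26 and 3 reads in WT replicates 1 to 3. Scaled for depth these were 0.311, 0.252 and 0.434 CPM in KO and 1.10, 0.805 and 0.465 CPM in WT, without overlap, although KO replicate 3 and WT replicate 3 were close and the last rests on 3 reads. Opposite to Nmnat2 there were 27, 23 and 15 reads in KO and 9, 14 and 0 in WT, beside Gm28960 on that strand. Opposite to Sirt4 there were at most 3 reads in any library, and opposite to Sirt7 at most 6. The ratio of Sirt1 to Sirt3 CPM was 0.502, 0.434 and 0.414 in KO replicates 1 to 3 and 0.669, 0.892 and 1.02 in WT replicates 1 to 3, without overlap. The Gdap10 transcript within Nampt had 59, 54 and 65 reads in KO and 134, 144 and 20 reads in WT. Scaled for depth these were 1.53, 1.36 and 1.57 CPM in KO and 3.89, 4.46 and 3.10 CPM in WT, without overlap. These values were looked at after the data were seen and carry no test.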
